A study of Saccharomyces cerevisiae with 15 samples.

Results

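The 3 libraries of rpc128-1007[RBS1] were compared with the 3 libraries of rpc128-1007[-], 6 of the 15 RNA-seq libraries of the series, chosen by their strain labels alone. All strains of the series were MATa strains of one rpc128-1007 mutant, with mutant alleles of ADE2, LYS2, URA3, LEU2 and HIS3 and the suppressor SUP11. The mutation lies in RPC128, named RET1 in the reference, which encodes the second largest subunit of RNA polymerase III (Pol III). rpc128-1007[RBS1], written [RBS1] below, carried RBS1 on the high-copy plasmid YEp181, whose marker is LEU2. rpc128-1007[-], written [-] below, carried an empty vector whose marker the sources used here do not name. The strains beside them were rpc128-1007[RBS1-R3H], with a mutated R3H domain of Rbs1 on the same LEU2 plasmid, rpc128-1007[PRT1], with a high-copy PRT1 plasmid, and wt, the same mutant complemented by native RPC128 on a centromeric plasmid. Cultures had no drug or stress treatment, spent the night in medium selecting for the plasmid, either without uracil or without leucine, and were harvested in log phase in YPD. The labels call the 3 cultures of a strain biological replicates.

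Reads had been counted on 6600 genes, and 5851 genes passed the filter on low counts and were tested. The total count lay between 7794547 and 11878873 in the [RBS1] libraries and between 10632690 and 12164321 in the [-] libraries. Levels are given as CPM, a gene's count as a share of its scaled library total brought to one common size, and in bulk cultures fewer cells with a transcript and less of it per cell cannot be told apart. A gene was called when its adjusted p was under 0.05 in a quasi-likelihood test (edgeR, Benjamini-Hochberg over all tested genes), and a fold change is on the log2 scale with its standard error (SE). Genes shorter than 500 bases took 7.62% of the counts in [RBS1] replicate 2 and 7.11% in [-] replicate 2, against 10.3% to 10.6% in the other [RBS1] libraries and 10.2% to 10.3% in the other [-] libraries. Markers were measured for other cell states: the 6 a-cell markers summed to between 1225 and 1606 CPM in [RBS1] and between 1176 and 1939 CPM in [-], the 4 alpha-cell markers to between 76.1 and 93.6 CPM in [RBS1] and between 49.7 and 56.8 CPM in [-], and the 8 markers of sporulating cells to between 106.1 and 108.2 CPM in [RBS1] and between 86.1 and 102.5 CPM in [-]. None of these 18 markers was at 0 in every one of the 6 libraries, and in both strains the a-cell markers were the most abundant of the sets.

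Pol III makes the tRNAs, 5S rRNA and other short RNAs, none of which carries a poly(A) tail, so its own products are outside these oligo(dT)-selected libraries and the measurements concern mRNA made by RNA polymerase II. Rbs1 is a poly(A)-bound protein that helps Pol III assemble, and its R3H domain binds RNA. Yeast mRNA levels of amino acid biosynthesis respond to Gcn4, the activator of general amino acid control, whose synthesis is regulated mainly at translation. Genes of branched-chain amino acid synthesis also respond to Leu3, a zinc-cluster protein that activates when the leucine precursor alpha-isopropylmalate is present, and proteasome genes respond to Rpn4.

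The [-] libraries stood apart along whole chromosomes, and this touches every comparison with them. Against the mean of the wt libraries, the median gene of chromosome XI was at -0.02, 0.01 and 0.00 on the log2 scale in the 3 [RBS1] libraries, against 0.82, 0.36 and 0.49 in the 3 [-] libraries. On chromosome VIII the medians were 0.05, 0.00 and 0.04 in [RBS1] against 0.09, 0.29 and 0.33 in [-], and on chromosome I they were -0.04, -0.05 and -0.04 in [RBS1] against 0.03, 0.28 and 0.30 in [-]. Replicate 1 of [-] was thus the highest on XI and the lowest on I and VIII, where it lay near the [RBS1] libraries. On the 13 other chromosomes the [-] medians lay between -0.04 and 0.03, and over all 16 chromosomes the [RBS1] medians lay between -0.06 and 0.05.

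**Figure D1:**
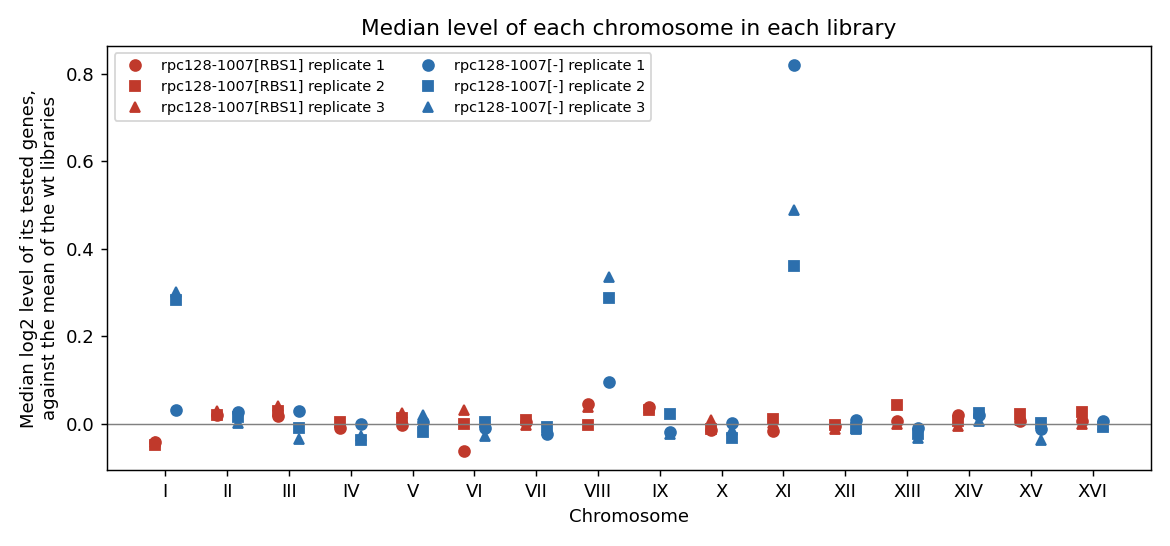
Median log2 level of the tested genes of each chromosome, against the mean of the 3 wt libraries, in the 3 [RBS1] libraries (red) and the 3 [-] libraries (blue). The [-] libraries reach 0.82, 0.36 and 0.49 on chromosome XI, while all [RBS1] medians lie between -0.06 and 0.05.

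On XI the shift covered both arms. In [-] replicates 1, 2 and 3 the 209 tested genes of the left arm of XI had medians of 0.80, 0.33 and 0.49, and the 100 genes of the right arm 0.88, 0.42 and 0.48. Of the 309 tested genes of XI, 296 had a negative fold change in [RBS1] against [-], 224 were called lower and 2 called higher, with a median of -0.56 and quartiles of -0.75 and -0.39. Chromosome VIII had 91 of 280 genes called lower and 6 higher, and chromosome I had 27 of 82 called lower and 2 higher. Chromosomes I, VIII and XI together gave 342 of the genes called lower (51.0% of their 671 tested genes), and the other genes gave 658 (12.7% of 5180). In mRNA counts a change in chromosome number and a change in transcription along a chromosome cannot be told apart, and DNA was not measured here. Values after subtracting each library's chromosome median, an alternative chosen after seeing the data, are called chromosome-centred below and stand beside the fold changes of single genes on these 3 chromosomes. The [RBS1-R3H] medians lay between -0.08 and 0.04 on all chromosomes, so the comparison of [RBS1] with that strain holds no such shift, and in [PRT1] chromosome VIII stood at 0.96, 0.96 and 0.97.

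**Figure D2:**
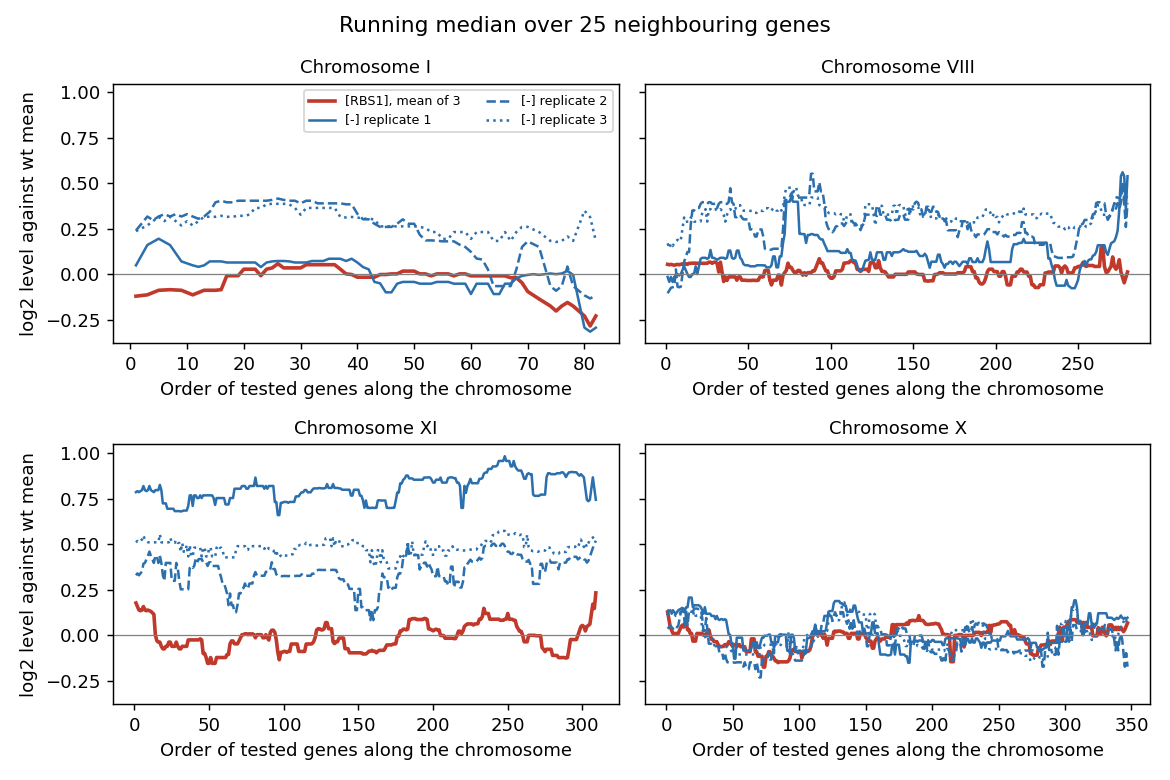
Running median over 25 neighbouring tested genes of the log2 level against the wt mean, in gene order along chromosomes I, VIII and XI and along X for comparison, for the mean of the [RBS1] libraries (red) and each [-] library (blue). On XI the 3 [-] lines run above the [RBS1] line along the chromosome, and on X the lines cross one another.

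Of the 5851 tested genes, 1737 (29.7%) were called, 737 higher in [RBS1] (12.6%) and 1000 lower (17.1%). Member counts of the lists below are to be read beside these shares. The median fold change was 0.44 over the genes called higher, -0.56 over those called lower and -0.01 over all tested genes. More than 2-fold changes made up 66 of the calls in the higher direction and 150 in the lower, and more than 4-fold changes 10 and 14. The 3 libraries of one strain did not overlap those of the other for 1628 called genes and overlapped for 109. Both counts were made among genes already called on the same values, so they give no separate support. Chromosome-centred, 736 genes were called higher and 783 lower, of which 654 and 740 carried the same call as before centring, and 3 genes carried opposite calls. Long genes were called lower more often: among genes of 2000 bases and over, 4.38% were called higher and 20.6% lower, and among genes under 500 bases 11.6% were called higher and 8.86% lower. Without replicate 2 of both strains these shares were 2.97% and 16.2% for the long genes and 11.1% and 10.9% for the short ones.

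The promoters of the genes that the results turn on are shown here by the sites that regulators of these pathways are known to bind, read from the R64 reference of Saccharomyces cerevisiae (RefSeq) by gene identifier. For each gene the 500 bases before the start codon were searched on both strands, which worked for 5699 of the 5851 tested genes, and 30 bases around a match are printed, 5′ to 3′ toward the gene, with the match in capitals. The first set holds the Gcn4 core TGACTC upstream of amino acid and vitamin B6 genes, at 339 bases from the start codon in ARG1, 308 in ARG3, 193 in HIS4 and 248 in SNZ1.
ARG1: gtgattttttagTGACTCatgtcgcatttg
ARG3: agggtcacgtcgTGACTCatatgctttctt
HIS4: acccatgcacagTGACTCacgtttttttat
SNZ1: atcatgacataaTGACTCagccgacaaggg
The second set holds the Leu3 element, CCGG and CCGG parted by any pair of bases, in branched-chain genes, at 207 bases from the start codon in LEU1, 137 in BAT1, 376 in BAP2, 367 in ILV5 and 458 in ILV2.
LEU1: aacgaaaattCCGGGACCGGcgaaatttgc
BAT1: attgtgtttgCCGGTACCGGcctttaagct
BAP2: ttttgtgggaCCGGAACCGGcatccacatt
ILV5: gcggtctcctCCGGTACCGGttctgccacc
ILV2: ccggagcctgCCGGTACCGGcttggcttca
The third set holds the Rpn4 element GGTGGCAAA, here on the opposite strand, at 99 bases from the start codon of SCL1 and 146 from that of RPT1, both proteasome genes.
SCL1: cacacaccaaTTTGCCACCgtaaggataga
RPT1: attaccgaatTTTGCCACCcgaaaactaaa

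The Leu3 element was rare, with 16 of 5699 searched genes (0.281%), and its holders included LEU1 and BAT1, among the largest falls. Of the 16, 8 were called lower, namely LEU1, BAT1, BAP2, ILV5, ILV2, DRE2, GAT1 and FSF1 (the last 3 named only as holders of the element), with fold changes between -3.75 and -0.92. LEU2, the plasmid marker, was the only one called higher, and the other 7 lay between -0.42 and 0.26. DRE2 (-1.29) lies on chromosome XI, where the [-] medians were 0.82, 0.36 and 0.49. Against the wt mean, DRE2 stood at 0.68, 0.28 and 0.42 in the [-] libraries and at -0.83 in the mean of the [RBS1] libraries. The Gcn4 core stood upstream of 44.9% of the genes called more than 2-fold lower (66 of 147), 22.5% of all genes called lower (224 of 996), 9.55% of those called higher (70 of 733) and 12.9% of all tested genes. Leaving out chromosomes I, VIII and XI, its share was 26.6% of the genes called lower. The Rpn4 element stood upstream of 5.18% of the genes called higher, 0.602% of those called lower and 1.68% of all tested genes. The stress element AGGGG (33.5% of genes called lower, 36.3% of those called higher and 34.5% of all) and the PAC element GATGAG (26.1%, 26.1% and 27.7%) were found at like shares in the calls of both directions, though AGGGG stood upstream of 43.5% of the genes called more than 2-fold lower. These windows can reach into a neighbouring gene, and a match is a description of sequence.

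RBS1 itself (YDL189W, chromosome IV) stood at 4223, 4425 and 4582 CPM in [RBS1] against 93.9, 134 and 72.9 CPM in [-], a fold change of 5.46 (SE 0.24, adjusted p = 3.5e-09). All [RBS1] libraries were far above all [-] libraries, as their labels say. In [RBS1-R3H] the same gene stood at 3947, 2464 and 2549 CPM, a difference of 0.56 that missed the threshold (adjusted p = 0.051) but was called when all 15 libraries were fitted with same-numbered libraries as pairs (0.57, adjusted p = 0.028), by voom (adjusted p = 0.031) and by DESeq2 (adjusted p = 0.020). PPH22 (YDL188C), which encodes a catalytic subunit of protein phosphatase 2A, ends 275 bases from RBS1 in the reference and was also higher. It had 760.1, 325 and 952 CPM in [RBS1], with replicate 2 lowest, against 68.2, 59.1 and 65.7 CPM in [-] (3.40, SE 0.32). In [RBS1-R3H], which has the same plasmid, PPH22 had 814, 411 and 525 CPM, and no difference from [RBS1] was called (0.22, adjusted p = 0.63). Its paralog PPH21, picked after its value was seen, had 110.3, 111 and 112 CPM in [RBS1] against 96.4, 99.7 and 98.8 CPM in [-] (0.17, adjusted p = 0.14), and was called in a fit of these 6 libraries that took same-numbered libraries as pairs, the replicate block below (0.18, adjusted p = 0.047).

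The plasmid markers differed between the strains. LEU2 (YCL018W), the isopropylmalate dehydrogenase of leucine synthesis, had 2259, 1898 and 3028 CPM in [RBS1] against 685, 897 and 788 CPM in [-] (1.60, SE 0.18). URA3 (YEL021W), of pyrimidine synthesis, had 188, 220.5 and 183 CPM in [RBS1] against 2295, 2028 and 2036 CPM in [-] (-3.43, SE 0.10), and 186, 227 and 208 CPM in [RBS1-R3H]. The 2 strains thus did not overlap for either marker, and counts do not part plasmid reads from those of the chromosomal alleles. LEU2 was also higher in [RBS1] than in wt (2.69) and [PRT1] (2.39), and URA3 was lower (-1.91 and -2.30). Marker, selective medium of the night culture and RBS1 overdose change together between [RBS1] and [-] and cannot be told apart there. By these levels the marker also differs against wt and [PRT1], so those comparisons do not part it from RBS1 overdose. In contrast, [RBS1-R3H] shares the marker with [RBS1]. The level of that marker still differed, with LEU2 at -0.65 in [RBS1] against [RBS1-R3H] (adjusted p = 0.015). This call was lost without replicate 1 or 2 of [RBS1] (adjusted p = 0.057 and 0.062).

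Genes of Pol III itself were called in small numbers, beside the 29.7% called among all tested genes. RET1, the mutated subunit gene, had 203, 212 and 186 CPM in [RBS1] against 192, 230.5 and 199 CPM in [-] (-0.05, SE 0.09, adjusted p = 0.71), and the values overlapped. It was lower than in wt, which carries RPC128 on a plasmid, by 1.16 on the log2 scale. Of the 10 Pol III-specific subunit genes 1 was called, RPC37 (-0.38), which lies on chromosome XI and was at 0.19 chromosome-centred (adjusted p = 0.15). Of the 7 subunit genes that Pol III shares with other polymerases, RPB8 was called (0.26, SE 0.08, adjusted p = 0.032), but not in the fit of 6 libraries (adjusted p = 0.094), with the gene length offset (0.15) or chromosome-centred (0.062). RPB10, another of these shared subunits, had 253, 132 and 248 CPM in [RBS1] against 204, 95.6 and 199.5 CPM in [-], a fold change of 0.34 (SE 0.26) with an adjusted p of 0.36. Replicate 2 was lowest in both strains, and within each replicate number the [RBS1] library was the higher, and with the replicate block RPB10 was called in the fit of 6 libraries (0.37, adjusted p = 0.0058) but not in that of all 15 (0.35, adjusted p = 0.31). With the block 2 of the 10 specific subunits were higher and 2 lower, and 3 of the 7 shared ones were higher. That fit called 983 genes higher and 1164 lower of the 5799 it tested. All list counts with the block, here and below, are to be read beside these numbers. Among the 11 genes of the Pol III transcription factors and the repressor Maf1, MAF1 was higher, with 65.1, 70.5 and 70.8 CPM in [RBS1] against 44.0, 55.7 and 48.4 CPM in [-] (0.48, SE 0.09). TFC3 of chromosome I, the largest TFIIIC subunit gene, was lower (-0.53) and missed the threshold chromosome-centred (-0.28, adjusted p = 0.050). Of the 9 assembly and import factors of polymerases, 3 were called higher, RBS1 among them, and RTR1, a phosphatase of the polymerase II tail with a role in its nuclear import, was at 0.64 (SE 0.18), and was not called in the fit of 6 libraries (adjusted p = 0.079).

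The branched-chain amino acid pathway held the largest falls among the lists, OAC1 and LEU1. All 11 tested genes of the list were called lower against [-], with a median of -1.62, against 17.1% of all genes called lower. OAC1 (YKL120W, chromosome XI), a mitochondrial carrier that also exports the leucine precursor, had 101, 82.1 and 102 CPM in [RBS1] against 1957, 1163 and 1267 CPM in [-], 15.4-fold lower in [RBS1] (-3.95, SE 0.19, adjusted p = 6.4e-09). Chromosome-centred the difference was -3.36. LEU1 (YGL009C, chromosome VII), isopropylmalate isomerase, had 273, 274 and 248 CPM in [RBS1] against 3717, 3888 and 3124 CPM in [-] (-3.75, SE 0.15). BAT1 (YHR208W, chromosome VIII), the mitochondrial branched-chain aminotransferase, had 464, 472 and 440.4 CPM in [RBS1] against 3419.8, 3722 and 2840.0 CPM in [-] (-2.86, SE 0.12), and -2.65 chromosome-centred. In each of these genes every [RBS1] library lay far below every [-] library.

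The other strains placed these values. OAC1 stood at 477 CPM in [RBS1-R3H], 497 in [PRT1] and 416 in wt as strain means, and LEU1 at 1336, 1619 and 1520, so [RBS1] was also lower than each of them (OAC1 at -2.33, -2.39 and -2.13 and LEU1 at -2.33, -2.61 and -2.52 on the log2 scale, with adjusted p values of 4.1e-06 and under). BAT1 was at -1.54 against wt and -2.07 against [RBS1-R3H]. In the comparisons with wt and [PRT1], marker and RBS1 overdose cannot be told apart, as stated above. BAP2 (YBR068C), a permease of branched-chain amino acids, had 335, 309 and 340.0 CPM in [RBS1] against 1232, 1181 and 1088 CPM in [-] (-1.83), and 1133 CPM in [RBS1-R3H] and 646 in wt. In the list, LEU4, which makes isopropylmalate, was at 338, 279.9 and 330.2 CPM in [RBS1] against 1567, 1280.2 and 1031 CPM in [-] (-2.03, SE 0.16), and against wt it was not called (-0.23, adjusted p = 0.36). ILV2, ILV3 and ILV5, which act in the steps shared by valine and isoleucine, were at -1.59, -1.70 and -1.62. BAT2, the cytosolic aminotransferase, was at -0.90. LEU4, ILV2, ILV3, ILV5 and BAT2 were picked after their values were seen. Against the same genes in the other strains, the list's median was -1.64 for [RBS1] over [RBS1-R3H], -0.55 over [PRT1] and -0.48 over wt, with the share of genes called at 27.9%, 16.3% and 10.8% in these 3 comparisons.

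**Figure D3:**
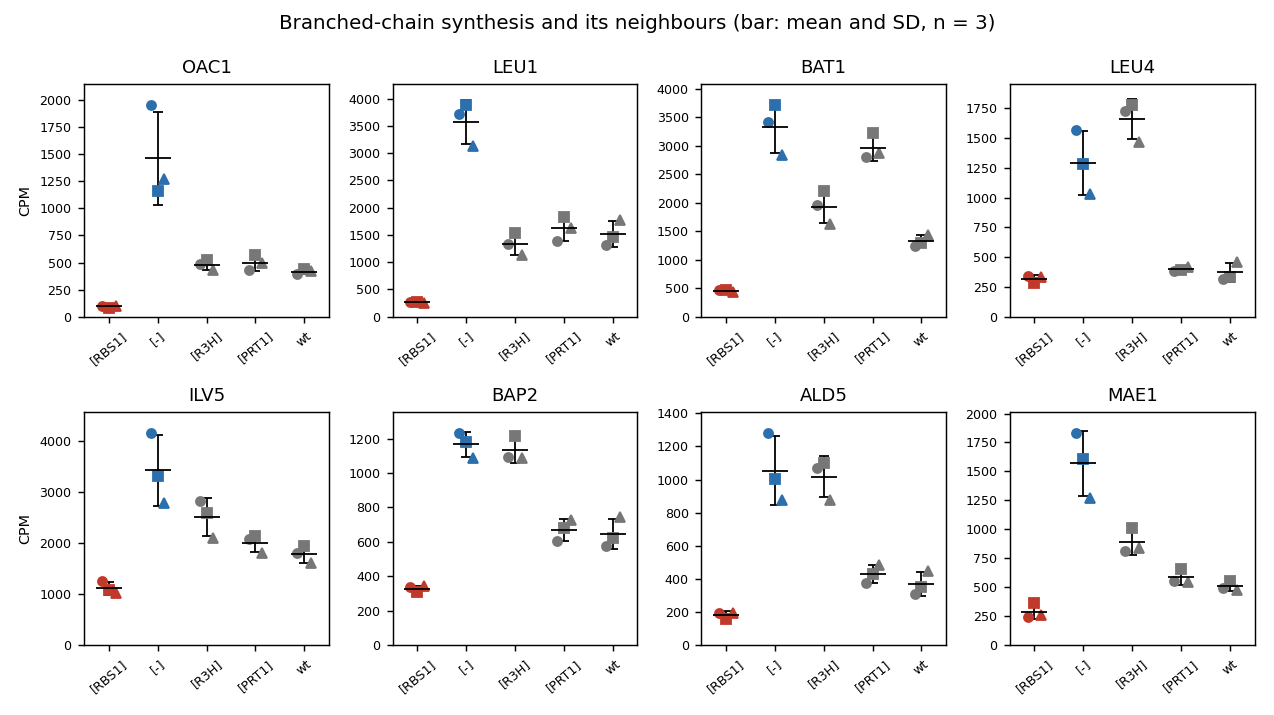
CPM of 8 genes of branched-chain synthesis, uptake and linked mitochondrial steps in each library of the 5 strains, with the strain mean and SD (n = 3; circle, square and triangle are replicates 1, 2 and 3; [R3H] stands for [RBS1-R3H]). The [RBS1] libraries are the lowest in every panel but LEU4, where wt and [PRT1] lie close to them.

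ALD5 and MAE1 moved with the branched-chain genes. ALD5 (YER073W), a mitochondrial aldehyde dehydrogenase, had 195, 157 and 193 CPM in [RBS1] against 1281, 1004 and 878 CPM in [-] (-2.54, SE 0.17), and wt lay between them at 310.4, 349 and 449.7 CPM. MAE1 (YKL029C, chromosome XI), mitochondrial malic enzyme, had 241, 363 and 259 CPM in [RBS1] against 1832, 1607 and 1271 CPM in [-] (-2.45, SE 0.17), and -1.89 chromosome-centred. Both were lower in [RBS1] than in wt, ALD5 at -1.03 and MAE1 at -0.82. TMT1, a methyltransferase whose substrates include isopropylmalate derivatives, had 71.5, 47.7 and 68.4 CPM in [RBS1] against 280.2, 238 and 169 CPM in [-] (-1.87). ISU2, a scaffold protein for iron-sulfur clusters, the cofactor of Leu1, was at -1.99 (SE 0.13). TMT1 and ISU2 were picked after their values were seen.

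Arginine synthesis genes all fell. All 9 tested members of the list were called lower against [-] (median -1.57), each with a fold change of -0.96 or lower. ARG1 (YOL058W), argininosuccinate synthetase, had 448, 309.5 and 491 CPM in [RBS1] against 1661, 1225 and 1032 CPM in [-] (-1.65, SE 0.35, adjusted p = 0.0029). ARG3 (YJL088W), ornithine carbamoyltransferase, had 64.3, 41.9 and 65.5 CPM in [RBS1] against 237, 156 and 118 CPM in [-] (-1.57, SE 0.31). In wt ARG1 had 169, 81.8 and 299 CPM and ARG3 34.8, 15.7 and 34.7 CPM, and ARG1 was higher in [RBS1] than in wt by 1.19 (adjusted p = 0.043), a call lost without replicate 1 or 3 of [RBS1] (adjusted p = 0.11 each). In [RBS1-R3H] the level of ARG1 was 3298, 3029 and 2371 CPM, above that of [-]. The median of the list was -2.32 in [RBS1] over [RBS1-R3H], 0.68 over [PRT1] and 0.64 over wt. Without [-] replicate 1 the median against [-] was -1.26.

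Other amino acid pathways were lower with smaller medians. In histidine synthesis 6 of 7 genes were called lower and none higher (median -0.85), in lysine synthesis 7 of 8 (median -0.67) and in aromatic synthesis 9 of 13 with 1 higher (median -0.80). HIS4 (YCL030C), a multifunctional enzyme of histidine synthesis, had 525, 537 and 572 CPM in [RBS1] against 1881, 1569 and 1208 CPM in [-] (-1.51, SE 0.19), and 331, 290.4 and 501 CPM in wt. HIS3, read from the mutant his3 allele of these strains, was at -1.31 (SE 0.16). LYS20, homocitrate synthase, had 803, 634 and 564 CPM in [RBS1] against 1929, 1263 and 993 CPM in [-] (-1.06, SE 0.22), and the groups did not overlap. LYS2, alpha-aminoadipate reductase, was at -1.04, ARO3, an entry enzyme of aromatic synthesis, at -1.27 and TRP3 of chromosome XI at -1.29, or -0.70 chromosome-centred. ARO7, chorismate mutase, was the member called higher (0.26).

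Sulfate assimilation and methionine synthesis had 13 of 21 genes called lower and 1 higher (median -0.46). Among all tested genes 17.1% were lower and 12.6% higher, which holds for the other counts of this paragraph too. MET17, homocysteine synthase, had 286, 232 and 273 CPM in [RBS1] against 919, 742 and 586 CPM in [-] (-1.51), and SAM2, S-adenosylmethionine synthetase, which can share reads with its close paralog SAM1, was higher with 400.3, 329 and 381 CPM in [RBS1] against 200.2, 217 and 225 CPM in [-] (0.79, SE 0.10). Serine, glycine, threonine and one-carbon genes had 11 of 16 lower and 1 higher. GCV2 (YMR189W), the glycine decarboxylase of mitochondria, fell most, with 60.7, 50.3 and 57.3 CPM in [RBS1] against 304, 217 and 192 CPM in [-] (-2.08, SE 0.15), and HOM6 was the member called higher (0.40) while HOM2, the step before it, was at -1.65. Of the 19 cytosolic aminoacyl-tRNA synthetase genes, 5 were lower and 1 higher, and CDC60, for leucine, was lowest (-0.81). Purine synthesis had 6 of 14 lower and 1 higher, and pyrimidine synthesis had 4 of 11 lower, the marker URA3 among them.

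GCN4 mRNA (YEL009C) was not called against [-]. It had 1378, 1296 and 1491 CPM in [RBS1] against 1446, 1309 and 1332 CPM in [-] (0.03, SE 0.07, adjusted p = 0.82), with overlapping values. It was higher in [RBS1] than in wt by 0.39 (adjusted p = 0.0045). Its level in [RBS1] was at -0.23 against [RBS1-R3H] (adjusted p = 0.026) and 0.25 against [PRT1] (adjusted p = 0.028). Both of these calls were lost without replicate 1 of [RBS1] (adjusted p = 0.077 and 0.067). These counts do not measure translation. Of the 29 genes for translation initiation factors and the GCN pathway, 6 were called higher and 3 lower, and GCN3 and TIF1, which has a near-identical copy in TIF2, among the lower lie on chromosome XI and stood at 0.04 and 0.16 chromosome-centred. Chromosome-centred, 1 member of the list was called higher and none lower. Before centring 12.6% of all tested genes were higher and 17.1% lower.

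Most genes for vitamins and coenzymes fell too. Of 18 genes for vitamin B6, NAD and riboflavin synthesis, 11 were called lower and none higher (median -0.47). SNZ1 (YMR096W), of pyridoxal phosphate synthesis, had 203, 135 and 217 CPM in [RBS1] against 950.1, 683 and 621 CPM in [-] (-2.02, SE 0.25). Its partner SNO1 had 37.5, 38.2 and 36.9 CPM in [RBS1] against 189, 136 and 108 CPM in [-] (-1.94). BNA1, of NAD synthesis, was at -1.52 and RIB5, riboflavin synthase, at -1.29, with no overlap of the libraries. ADH5, an alcohol dehydrogenase, had 66.6, 51.0 and 67.6 CPM in [RBS1] against 247, 185 and 162 CPM in [-] (-1.68, SE 0.20). SNZ1 stood at 1554, 1575 and 1358 CPM in [RBS1-R3H] and 74.7, 135 and 154 CPM in wt, and [RBS1] was not called against wt (0.61, adjusted p = 0.12).

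The carriers of the mitochondrial inner membrane had 15 of 27 called lower and 2 higher. Among all tested genes 17.1% were lower and 12.6% higher. GGC1, the GTP/GDP carrier, had 319.7, 269.9 and 341 CPM in [RBS1] against 1349, 822 and 811 CPM in [-] (-1.68, SE 0.22). DIC1, the dicarboxylate carrier, had 25.0, 20.9 and 25.3 CPM in [RBS1] against 90.7, 63.8 and 83.7 CPM in [-] (-1.74, SE 0.15), and stood at -1.59 against wt, where GGC1 was not called (0.34, adjusted p = 0.34). YMC1, whose product carries glutamate or oxaloacetate, was at -0.68. PET9, the major ADP/ATP carrier, was higher, with 709, 567 and 787 CPM in [RBS1] against 552, 431 and 443 CPM in [-] (0.53, SE 0.11). The list's second member called higher was YHM2 (0.26), which missed the threshold chromosome-centred (adjusted p = 0.081).

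Most genes of the mitochondrial ribosome fell. Of 71 tested members 50 were called lower and none higher (median -0.50), against 17.1% of all genes. Among the 63 members off chromosomes I, VIII and XI, 43 were lower (median -0.48), and chromosome-centred 47 of 71 were lower. RSM22 (chromosome XI) was lowest at -1.30, with 52.0, 57.3 and 59.1 CPM in [RBS1] against 170.2, 115 and 129.6 CPM in [-], and at -0.73 chromosome-centred. MRPL31 (chromosome XI), a protein of the large subunit, was at -1.21 and at -0.64 chromosome-centred. The list's median was -0.07 in [RBS1] over [RBS1-R3H] and -0.31 over wt. Without replicate 2 of both strains 37 of 72 were lower, and with the replicate block 65 of 71. The respiratory chain and ATP synthase, encoded in part by the RNAs that this ribosome translates, had 1 of 38 nuclear genes lower and none higher (median 0.09), and with the replicate block 5 were higher and 1 lower. In the tricarboxylic acid cycle and its feeders 7 of 25 were lower and 2 higher, beside 17.1% and 12.6% of all tested genes. SDH2, of succinate dehydrogenase, had 112, 86.2 and 169 CPM in [RBS1] against 66.2, 44.3 and 69.3 CPM in [-] (1.03, SE 0.23), KGD1 was at 0.59, and PYC2, pyruvate carboxylase, at -1.12.

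**Figure D4:**
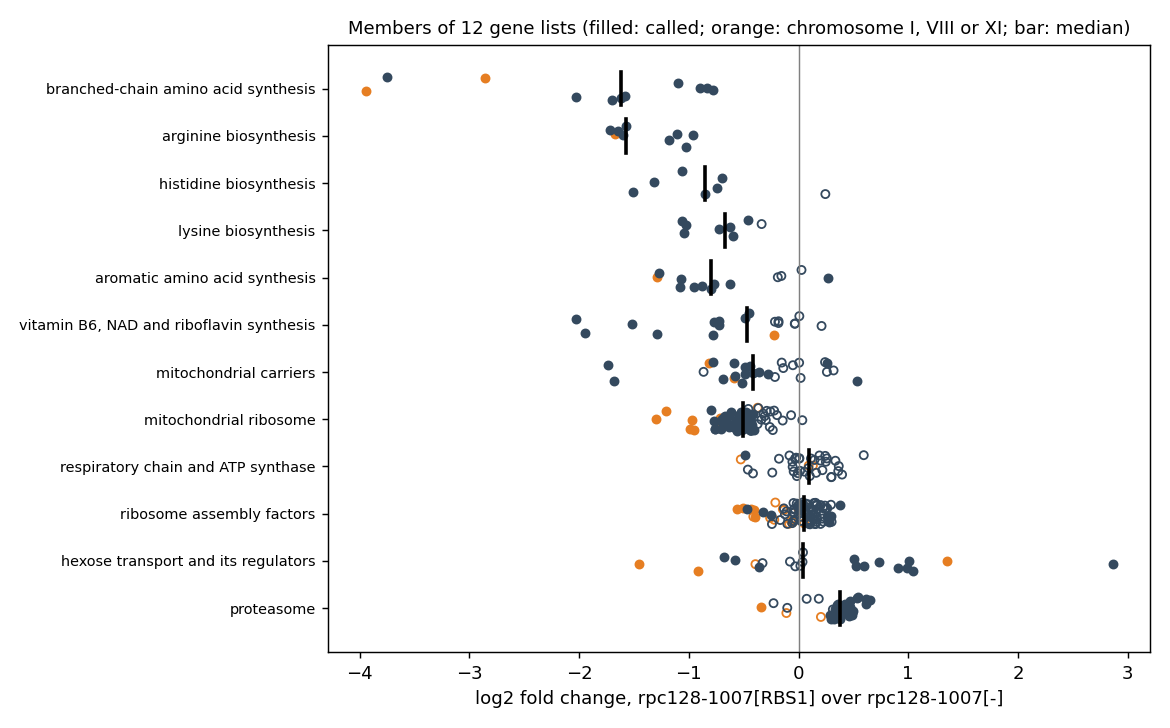
log2 fold change of [RBS1] over [-] for the tested members of 12 gene lists, filled where called, orange on chromosomes I, VIII or XI, with the list median as a bar. All 11 branched-chain and all 9 arginine genes lie left of 0, the proteasome genes lie mostly near 0.38 and the 3 orange proteasome genes lie left of that list's median.

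Most proteasome genes rose. Of 34 tested members 25 were called higher and 1 lower (median 0.38), against 12.6% of all genes called higher. SCL1, the first alpha subunit of the core, had 414, 358 and 430.3 CPM in [RBS1] against 252, 231 and 302 CPM in [-] (0.62, SE 0.11), and PRE5, another alpha subunit, was at 0.65 (SE 0.13). The exception was RPT1 (chromosome XI), a base ATPase, at -0.34, with 351, 358 and 395 CPM in [RBS1] against 527, 383 and 489 CPM in [-] and overlapping values. Chromosome-centred RPT1 was at 0.22 (adjusted p = 0.079), and RPN10 of chromosome VIII, picked after its value was seen, stood at 0.20 (adjusted p = 0.24) before centring and 0.42 (adjusted p = 0.0087) after. The 31 members off chromosomes I, VIII and XI included 25 called higher and none lower. The Rpn4 element was found upstream of 27 of the 34 genes. In [RBS1] over wt the list's median was -0.05, and over [RBS1-R3H] 0.40. Without replicate 2 of both strains 19 of 34 were called higher.

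Genes for assembly of the cytosolic ribosome were rarely called. Of 99 ribosome assembly factor genes 4 were called higher and 8 lower (median 0.05), and the lower ones included DBP7 (-0.56) and LTV1 (-0.50) of chromosome XI, which stood at 0.01 and 0.07 chromosome-centred. RRP36 (0.38) and BRX1 (0.29) were among the higher, and neither was called without replicate 2 of both strains. With the replicate block 16 of the 99 were higher and 10 lower. Of 56 genes for proteins of the small ribosomal subunit, 10 were lower and none higher, a share close to the 17.1% of all tested genes. RPS9A had 184, 152 and 153 CPM in [RBS1] against 521, 393 and 396 CPM in [-] (-1.42, SE 0.12) and RPS14B was at -1.18. Both have a near-identical paralog, so the split of reads between copies is uncertain. The 10 histone genes had fold changes between -0.18 and 0.19.

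Sugar transporter genes were called in both directions. Of 22 tested genes of hexose transport and its regulators, 10 were called higher and 5 lower (10 and 6 chromosome-centred), where 12.6% of all tested genes were higher and 17.1% lower. HXT1 (YHR094C, chromosome VIII), a low-affinity transporter induced by high glucose, had 174, 217 and 243 CPM in [RBS1] against 512, 532 and 696 CPM in [-] (-1.46, SE 0.15), and -1.24 chromosome-centred. HXT3, also of low affinity, was at -0.58, with 1059, 1109.8 and 1361 CPM in [RBS1] against 1381, 1857 and 2046 CPM in [-], and missed the threshold without replicate 2 of both strains (adjusted p = 0.067). The groups overlapped for neither gene. HXT2, a transporter of higher affinity, had 1074, 1152 and 1124 CPM in [RBS1] against 469, 655 and 539 CPM in [-] (1.01, SE 0.15). HXT4 of chromosome VIII had 102, 102 and 147 CPM in [RBS1] against 21.0, 45.9 and 70.4 CPM in [-] (1.35, SE 0.34), and 1.60 chromosome-centred. HXT7 had 113, 118 and 178 CPM in [RBS1] against 45.1, 96.4 and 56.4 CPM in [-] (1.04, SE 0.23), though its near-identical copy HXT6 can share reads. These 3 were higher in every [RBS1] library than in any [-] library.

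Set against wt, HXT2 was higher in [RBS1] by 1.27 and HXT7 by 2.27, and HXT1 was at -0.75 (adjusted p = 0.0085). HXT10 was scarce, with counts of 63, 28 and 39 in [RBS1] against 1, 7 and 11 in [-]. RGT1 (chromosome XI), the repressor of HXT genes, had a fold change of -0.92, and -0.36 chromosome-centred (adjusted p = 0.018). HXT2, HXT3 and HXT7 were picked after their values were seen. Of 25 genes of glycolysis and ethanol formation 1 was higher, TDH3 (0.29, SE 0.06), which shares reads with similar copies, and 4 lower. Among all tested genes 12.6% were higher and 17.1% lower.

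**Figure D5:**
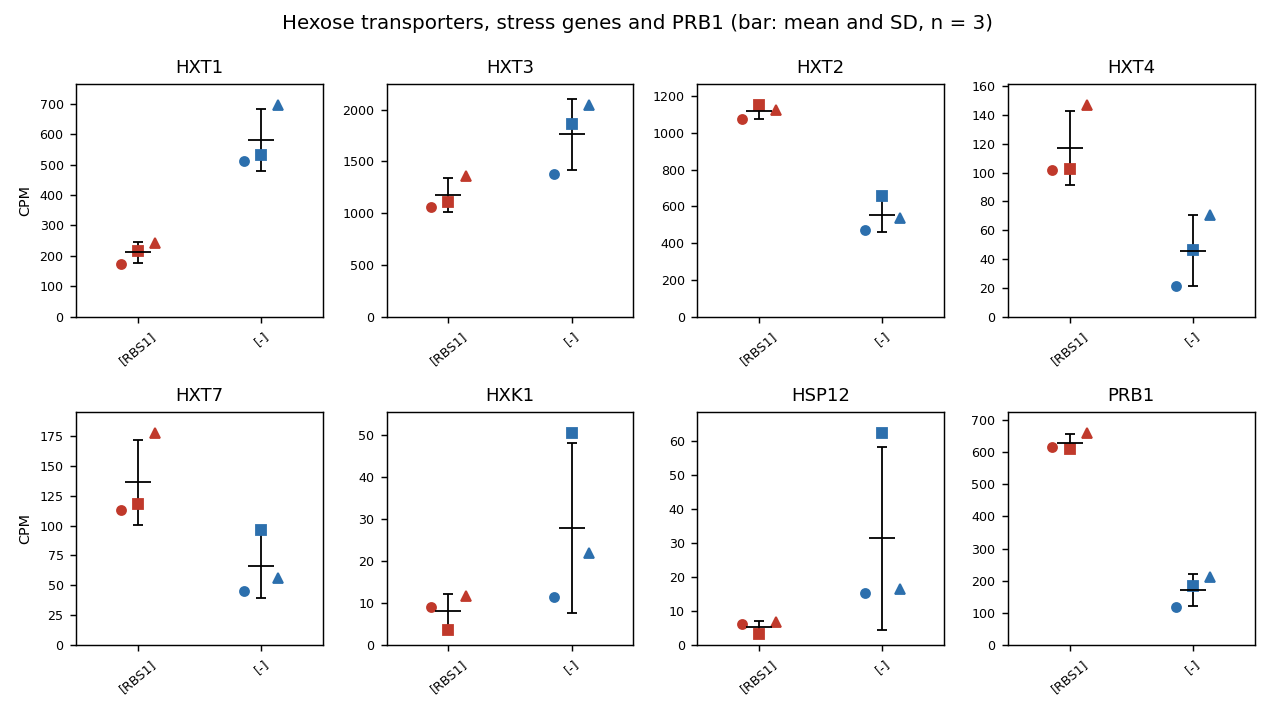
CPM of 5 hexose transporter genes, HXK1, HSP12 and PRB1 in each [RBS1] and [-] library, with mean and SD (n = 3; circle, square and triangle are replicates 1, 2 and 3). HXT1 and HXT3 lie lower and HXT2, HXT4, HXT7 and PRB1 higher in [RBS1], and for HXK1 and HSP12 replicate 2 is the highest [-] library.

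Several stress and reserve genes fell, though most of these calls were lost when single libraries were left out. HSP12 (YFL014W), a membrane-stabilizing stress protein, had 6.18, 3.33 and 6.62 CPM in [RBS1] against 15.1, 62.3 and 16.5 CPM in [-], with [-] replicate 2 highest and no overlap of the groups. Its fold change of -2.53 (SE 0.75, adjusted p = 0.020) was -1.53 without replicate 2 of [-] (adjusted p = 0.13), and it was not called without replicate 1 or 2 of [RBS1] either (adjusted p = 0.057 and 0.064). HXK1, hexokinase 1, had 8.98, 3.46 and 11.7 CPM in [RBS1] against 11.5, 50.5 and 21.8 CPM in [-] (-1.78), and was not called without that library (-1.03, adjusted p = 0.14), without replicate 1 or 2 of [RBS1] (adjusted p = 0.058 and 0.074) or with the replicate block (adjusted p = 0.080). RTC3 (chromosome VIII, -2.05, and -1.82 chromosome-centred) was at -1.16 without it and was not called (adjusted p = 0.14), nor without replicate 2 or 3 of [RBS1] (adjusted p = 0.066 and 0.057). HSP26, picked after its value was seen, was not called (-2.10, adjusted p = 0.063). TSL1, of trehalose synthesis, had 15.1, 17.3 and 17.6 CPM in [RBS1] against 33.9, 81.9 and 32.4 CPM in [-] (-1.57, SE 0.34), and remained called at -1.02 without replicate 2 of both strains (adjusted p = 0.025). Of 19 glycogen and trehalose genes 2 were called lower (4 with the replicate block) and none higher, of 25 heat shock chaperones 3 higher and 3 lower (6 and 4 with the block), and IGD1, an inhibitor of glycogen debranching, was not called (-0.51, adjusted p = 0.37). Over all tested genes 12.6% were higher and 17.1% lower. CPR6, a cochaperone of Hsp90, rose by 0.67 and SSA2, which has a near-identical copy, by 0.38.

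Several single genes rose strongly outside these lists. PRB1 (YEL060C), the vacuolar proteinase B, had 616, 609.9 and 659.6 CPM in [RBS1] against 117, 183 and 212 CPM in [-] (1.88, SE 0.28), and was also higher than in wt by 1.29 and than in [RBS1-R3H] by 1.99. NAM8 (YHR086W, chromosome VIII), an RNA-binding splicing factor, had 140.4, 114 and 142 CPM in [RBS1] against 49.1, 52.5 and 60.6 CPM in [-] (1.29, SE 0.12, and 1.50 chromosome-centred), and 33.9, 33.5 and 38.2 CPM in wt. ECM8, a gene of unknown function, had 17.2, 22.5 and 19.2 CPM in [RBS1] against 4.73, 3.55 and 3.95 CPM in [-] (2.26). Each of the 3 was higher in [RBS1] than in any of the other strains by the test. YML131W, which encodes an oxidoreductase-like protein, was at 1.80, YJL218W at 1.54 and TIR1, a cell wall mannoprotein, at 1.32. AQY2, an aquaporin gene interrupted in laboratory strains, was at 1.62, and YLL053C, which overlaps it by 50 bases in the reference, at 1.71. AQY2 was at 67.2, 77.6 and 77.3 CPM in wt, and [RBS1] was lower than wt by a margin that missed the threshold (-0.57, adjusted p = 0.079) and passed it with the block in all 15 libraries (adjusted p = 0.046), by DESeq2 (0.048) and by voom (0.036). The peroxiredoxin genes AHP1, with 1305, 1101 and 1627 CPM in [RBS1] against 499, 471 and 886 CPM in [-] (1.12), and PRX1 (1.02) also rose and were picked after their values were seen.

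Falls outside the lists included CWP1 (YKL096W, chromosome XI), a cell wall mannoprotein, with 14.4, 12.2 and 15.3 CPM in [RBS1] against 73.9, 60.3 and 69.0 CPM in [-] (-2.27, SE 0.22, and -1.71 chromosome-centred). In [RBS1-R3H] CWP1 stood at 13.1, 8.08 and 18.8 CPM (0.07, adjusted p = 0.87). SRY1 (chromosome XI), a dehydratase of 3-hydroxyaspartate, had 59.1, 54.8 and 75.9 CPM in [RBS1] against 338, 217 and 223 CPM in [-] (-2.03, and -1.45 chromosome-centred). Phosphate genes had 8 of 23 lower and none higher, where 17.1% of all tested genes were lower and 12.6% higher, and the counts were the same chromosome-centred. SPL2 (chromosome VIII), an inhibitor of low-affinity phosphate uptake, had 13.2, 24.5 and 4.63 CPM in [RBS1] against 74.7, 73.5 and 28.7 CPM in [-] (-2.08, SE 0.48, and -1.89 chromosome-centred), and the acid phosphatase PHO12 118, 203 and 43.8 CPM in [RBS1] against 479.9, 616 and 185 CPM in [-] (chromosome VIII, -1.81, and -1.61 chromosome-centred), with replicate 3 lowest in both strains and a near-identical copy in PHO11. PHO84, the high-affinity transporter, picked after its value was seen, was at -1.18 (adjusted p = 0.096), and was called with the replicate block (-1.37, adjusted p = 0.0044), where 15 of the 23 were lower and 2 higher.

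Uptake and nitrogen genes were mixed, where 12.6% of all tested genes were higher and 17.1% lower. Of 19 amino acid permease genes 7 were lower, BAP2 and AGP1 (-0.95, and not called without replicate 2 of both strains) among them, and 2 higher, ALP1 (17.6, 16.2 and 18.6 CPM in [RBS1] against 7.91, 8.97 and 6.31 CPM in [-], 1.17) and MMP1 (0.46). MMP1 was not called in the fit of 6 libraries (adjusted p = 0.074) or without replicate 1 of [RBS1] (adjusted p = 0.17). It was also not called without replicate 1 or 3 of [-] (adjusted p = 0.13 and 0.079). Of 28 nitrogen catabolite genes 13 were lower and 4 higher. GLN3, the activator of that regulon, was at -1.10, CAR2, of arginine degradation, at -1.07, UGA4 at 0.97 and DAL4 at 0.78. In the iron regulon 10 of 29 were lower and none higher (12 and 3 with the block, 8 and none chromosome-centred), though FRE2 (-0.84) and ARN2 (-0.84) lie on chromosomes XI and VIII and were not called chromosome-centred (-0.25 and -0.61). Ergosterol synthesis had 4 higher, ERG10 most (888, 846 and 904 CPM in [RBS1] against 569, 581 and 596 CPM in [-], 0.60, SE 0.06), and 3 lower of 27 (6 and 6 with the block), with ERG2 at -0.43 and ERG3 at -0.45. The calls were 14.8% higher and 11.1% lower of that list. IMD2, an IMP dehydrogenase gene of chromosome VIII, was at -1.52 (-1.29 chromosome-centred), IMD4 at 0.38, ADE3 at -0.80 and URA10 at -1.37.

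In the mating pathway 9 of 22 pheromone response and a-cell genes were called higher and 1 lower, or 11 and 3 with the block, where 12.6% of all tested genes were higher and 17.1% lower. Without replicate 2 of both strains 4 of the 22 were called higher and 2 lower. AGA1, the anchor of a-agglutinin, had 98.3, 92.5 and 91.4 CPM in [RBS1] against 46.2, 57.3 and 56.9 CPM in [-] (0.82, SE 0.11), PRM3 was at 0.84 and FUS1 at 0.69. The member called lower was STE6 (chromosome XI), the a-factor exporter (-0.56), which stood at 0.00 chromosome-centred. SAG1, alpha-agglutinin, had 58.3, 55.6 and 59.7 CPM in [RBS1] against 29.7, 28.3 and 24.9 CPM in [-] (1.07, SE 0.10), and was also higher than in wt by 1.00 and than in [RBS1-R3H] by 0.92. Of the 4 alpha-cell markers 2 were called higher and none lower. MF(ALPHA)1 had counts of 30, 17 and 24 in [RBS1] against 0, 3 and 2 in [-]. STE3 (chromosome XI) was not higher before centring, with 17.6, 11.7 and 19.1 CPM in [RBS1] against 18.1, 15.1 and 19.3 CPM in [-]. Against the wt mean, STE3 stood at 0.27, 0.02 and 0.36 in the [-] libraries, below their medians for XI of 0.82, 0.36 and 0.49. In the mean of the [RBS1] libraries it stood at 0.08. The meiotic gene HOP1 had 14.6, 14.9 and 13.9 CPM in [RBS1] against 5.98, 7.70 and 8.29 CPM in [-] (0.98, SE 0.23). Of the 8 markers of sporulating cells 1 was called higher and none lower. IME1 of that set had 8.74, 9.63 and 10.9 CPM in [RBS1] against 12.7, 9.90 and 12.1 CPM in [-]. MFA1, an a-factor gene, had 166, 25.9 and 161 CPM in [RBS1] against 287, 52.4 and 229 CPM in [-], with replicate 2 lowest in both strains (-0.68, adjusted p = 0.40), and was called with the replicate block (-0.74, adjusted p = 0.0030). FUS1, SAG1, MF(ALPHA)1, STE3, HOP1, IME1 and MFA1 were picked after their values were seen.

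In 3 further lists calls of both directions were made. Daughter-cell separation genes had 2 of 13 higher, NIS1 (0.29) and DSE3 (0.23), and 2 lower, SUN4 (-0.38) and PRY3 (-0.29), or 3 and 4 with the block. NIS1, DSE3 and PRY3 were not called in the fit of 6 libraries (adjusted p = 0.082, 0.099 and 0.11). Each of them also lost its call without some single libraries, and DSE3 was not called chromosome-centred (adjusted p = 0.072). Genes of endoplasmic reticulum chaperones and the unfolded protein response had 4 of 18 higher, with SCJ1 at 0.40 and SIL1 at 0.36, and 4 lower, of which LHS1 (chromosome XI, -0.52) stood at 0.04 chromosome-centred and IRE1 (chromosome VIII, -0.54) at -0.32. In both directions together 29.7% of all tested genes were called. Of 21 autophagy genes ATG1 was higher (0.52) and ATG2 (-0.98) and ATG13 (-0.56) lower, or 3 higher and 3 lower with the block. ATG1 was not called in the fit of 6 libraries (adjusted p = 0.079) or chromosome-centred (adjusted p = 0.0504). It was also not called without replicate 2 of both strains (adjusted p = 0.061). ATG2 had 41.7, 53.6 and 48.6 CPM in [RBS1] against 101, 104 and 78.2 CPM in [-], without overlap.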

How the data were processed

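Oligo(dT)-selected RNA of 15 cultures, 3 a strain, was sequenced. The authors aligned reads with TopHat2 2.0.11 to the EF4 assembly and counted them per gene with GenomicAlignments. The deposited values are whole-number counts, not normalised, and the setting for strand is not given in the sources used here. The authors' own testing used DESeq2 1.24.0.

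Genes were kept by filterByExpr (minimum count 10, total 15), scaled by TMM and tested with edgeR 4.0.16 (R 4.3.3), a quasi-likelihood fit of all 15 libraries with a contrast of the strains, adjusted by Benjamini-Hochberg at 0.05. The p-values rest on the spread between the 3 cultures of a strain, estimated over all 15 libraries with information shared across genes. limma 3.58.1 (voom), DESeq2 1.42.0, other scalings and filters, replicate blocks, a gene length offset and each library left out were alternatives, and the chromosome offset and the fit without chromosomes I, VIII and XI were added after seeing the data. The method was tested on simulated data. Same-numbered libraries of the strains deviated together (r = 0.55, 0.73 and 0.58 over all tested genes, and 0.45, 0.32 and 0.50 over genes of at least 1000 bases), so the numbers were taken as pairs from the data, and the block was fitted to the 6 libraries of both strains unless stated otherwise. Genes named were the targeted and plasmid genes, genes the study names from its RNA-seq, the 12 called genes per direction with the largest change at a mean of 10 CPM or more and no overlap of libraries, the 2 per list and direction with the largest change, and those said to be picked after their values were seen. A gene that this rule named is not reported here. The gene lists and genes were chosen with earlier results of these data known. Names, lengths, neighbours and upstream sequence came from the R64 reference, matched by identifier for 5917 of 6600 genes. Intervals of motif shares were not used for comparison. Reads of near-identical genes and of overlapping genes cannot be told apart here.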

Additional observations from a re-analysis of the deposited data

How the results depend on the processing

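With only the 6 libraries of the 2 strains in the fit, 1012 genes were called, 396 higher and 616 lower, and with library totals as the scale 1125 were higher and 715 lower (61.1% of calls higher, against 42.4% in the fit reported), the median of all genes standing at 0.08. DESeq2 called 842 higher and 976 lower, voom 759 and 989, RLE scaling 803 and 938, no filter 756 and 953 and the length offset 827 and 1001. With the replicate block 983 were higher and 1164 lower in 6 libraries, and 971 and 1249 in all 15. Without chromosomes I, VIII and XI 638 were lower. Leaving out one library at a time gave 1325 to 1568 calls, 563 to 662 higher and 762 to 932 lower, and without replicate 2 of both strains there were 524 and 814. List medians ranged under the same omissions from -1.77 to -1.26 for arginine (-1.26 without [-] replicate 1), -1.75 to -1.52 for branched-chain, -0.61 to -0.43 for the mitochondrial ribosome and 0.32 to 0.46 for the proteasome. For the other 33 lists, 586 of 627 medians over all alternatives moved by less than the SD between libraries of a strain of the list's median level. With the chromosome offset the sign turned for LHS1 (0.039), PGM1 (0.092), STE6 (0.0045), RPC37 (0.19), RPT1 (0.22), LTV1 (0.067), DBP7 (0.0076), TIF1 (0.16) and GCN3 (0.044), all on XI. Near 0, RET1 was at 0.041 with library totals, 0.073 with the length offset, 0.078 with block and length offset and between -0.10 and 0.033 with a library left out, PRT1 between -0.018 and 0.17 and GCN4 between -0.026 and 0.075. Against [RBS1-R3H], URA3 was at 0.055 with library totals, PPH22 between -0.10 and 0.55 with a library left out, and CWP1 at -0.0067 with the length offset and between -0.00031 and 0.15 with a library left out. In 150 bases before the start codon the shares were 6.22% for Gcn4, 0.201% for Leu3 and 10.9% for the stress element among genes called lower, and 2.73% for Rpn4 and 10.1% for PAC among those called higher. Over all tested genes the shares in that window were 3.25%, 0.0351%, 11.2%, 0.632% and 10.2%, in the same order. Of the 146 named genes, 25 lost their call in the fit of 6 libraries and 9 to 19 without 1 library. Without replicate 2 of both strains RTC3, HSP12, AGP1, ARO7, ATG1, PRY3, HXK1, ARN2, YHM2, RPB8, NDE1, RRP36, BRX1, STR3, TIF34 and HXT3 were not called. With the block in all 15 libraries PHO84 was called (-1.32). The causes of these differences were not tested. Counts alone cannot part plasmid from chromosomal reads, and 3 cultures a strain limit small changes.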
